A study of Homo sapiens with 24 samples.

Results

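The replication-dependent histone genes of the HIST1, HIST2, HIST3 and HIST4 clusters were followed in poly-A-selected RNA-seq libraries of T-47D cells, an established estrogen receptor (ER)-positive breast cancer cell line. Genes whose symbol starts with HIST1H, HIST2H, HIST3H or HIST4H were taken from the 3 count tables, 3 pseudogenes among the 73 such symbols were left out, and a gene was kept if it had at least 10 counts in 4 or more of the 24 libraries. This left 46 of 70 histone cluster genes, out of 26364 genes in the tables. The cells were clones whose own ESR1 gene, which encodes ER, was WT or carried the Y537S or the D538G ligand-binding domain mutation, with 2 clones of each genotype treated as biological duplicates. All clones were kept in hormone-deprived medium and collected 24 h after transfection with 10 nM of a miRNA mimic, an inhibitor or the matching negative control. In WT clones the mimics were those of miR-331-3p, miR-181c-5p and miR-301b-3p, beside the mimic negative control. Y537S clones received the mimic negative control, mimics of miR-301b-3p or miR-331-3p, an inhibitor negative control or a let-7f inhibitor. D538G clones received the mimic negative control or mimics of miR-301b-3p or miR-181c-5p. Each of the 12 conditions was 1 library per clone. A genotype here is 2 clones, so that genotype and clone origin cannot be told apart.

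Replication-dependent histones package newly copied DNA, and their genes are transcribed mainly during S phase. Their mRNAs normally lack introns and a poly-A tail. They end instead just after a short stem-loop that the stem-loop binding protein SLBP holds for processing, translation and decay. Poly-A selection therefore catches most of these mRNAs poorly, while replacement histones, which are made throughout the cell cycle, have ordinary polyadenylated mRNAs. Some cluster genes also have longer polyadenylated transcripts that run past the stem-loop or splice around it, and these have been described in cells that have left the cell cycle. A level in these libraries is thus the level of the transcripts that poly-A selection retained, and not the total histone mRNA of the cell.

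The stem-loop was found in the annotated transcripts of all 44 members that could be matched to GENCODE transcripts on hg19. HIST1H2BG and HIST1H2BF had no match. The search used the stem-loop consensus, a stem of 6 bases on each side of a loop of 4 bases. It was present in the last 50 bases of a transcript for 43 members, and for 2 of 20082 other protein-coding genes (0.00996%). The forms carried by members are shown because they separate the classes. Capitals mark the stem and lower case the loop.
H1, H2A, H2B and H3, 26 members including HIST1H1C, HIST1H2AC and HIST2H2BE: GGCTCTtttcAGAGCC
H1, H2A, H2B and H3, 6 members including HIST1H2BK and HIST1H2BD: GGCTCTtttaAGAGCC
H4, 7 members including HIST1H4H and HIST1H4E: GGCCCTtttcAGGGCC
H4, 2 members: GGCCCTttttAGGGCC
All 9 H4 members had the stem of the last 2 lines, which no member of the other classes had. The remaining 3 members, 2 of class H2A and 1 of class H3, each had a form of their own.

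The annotated ends divided the members. In 30 members every annotated transcript ended at the stem-loop. In 14 members at least 1 transcript had another end. Counted over all members, 13 had a transcript with AATAAA or ATTAAA in its last 50 bases, a hexamer pair found there in 85.2% of the other protein-coding genes. These sets overlapped but were not nested. HIST4H4 and HIST1H3J had another end without a hexamer there, and HIST1H2BH had a hexamer with a stem-loop end only. HIST2H2BE, on chromosome 1 (hg19 chr1:149856009-149858232, minus strand), had a single annotated transcript that ran 1729 bases past its stem-loop. HIST1H2AC (chr6:26124373-26139344, plus strand) and HIST1H3H (chr6:27777829-27779078, plus strand) each had a short form ending 6 and 5 bases after the stem-loop and a long form running 1128 and 769 bases beyond it. HIST1H2BK (chr6:27114140-27114634, minus strand) and HIST1H1C (chr6:26055968-26056698, minus strand) had only the short form, ending 5 and 4 bases after the stem-loop. In all, 36 members lay on chromosome 6, 7 on chromosome 1 and 1, HIST4H4, on chromosome 12.

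The mimics used are shown by their mature sequences (RefSeq, GRCh38.p14), with the seed, bases 2 to 8, in capitals. None of the 4 seeds was shared. The sequence of let-7f-5p is given as the miRNA named by the inhibitor.
miR-301b-3p: cAGUGCAAugauauugucaaagc
miR-331-3p: gCCCCUGGgccuauccuagaa
miR-181c-5p: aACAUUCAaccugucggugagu
let-7f-5p: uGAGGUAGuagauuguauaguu
Few members held a match to these seeds in their longest annotated 3′ untranslated region. A 7-base match on the transcript strand was present in 3 of 44 members for miR-301b-3p (15.4% of other genes), 2 for miR-331-3p (16.9%), 2 for miR-181c-5p (21.1%) and 1 for let-7f-5p (12.3%). These shares were not adjusted for length. Many members have a very short region, such as 57 bases in HIST1H2BK and 47 bases in HIST1H1C, with little room for a match. In HIST1H2BN it spans 3575 bases. How far the low shares follow from length was not tested. The genes were HIST1H2BD, HIST1H2BN and HIST1H3E for miR-301b-3p, HIST1H2BN and HIST4H4 for miR-331-3p, HIST1H3D and HIST1H3E for miR-181c-5p and HIST2H2BF for let-7f-5p. HIST1H2BD, whose response to miR-301b-3p is described further on, had its match in the distal exon of a transcript that splices past the stem-loop (hg19 chr6:26171385-26171407, plus strand). NPAT, which activates histone gene transcription at S phase entry, had 1 match to miR-301b-3p (chr11:108028841-108028863, minus strand). It also had 1 match to miR-181c-5p and 0 to miR-331-3p. Capitals mark the match.
HIST1H2BD, miR-301b-3p: aaaggtgtTTGCACTtcatgtta
NPAT, miR-301b-3p: ttaaagaaTTGCACTaattcata
A match is a description of these letters and not evidence of binding.

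The libraries held 31379962 to 50526442 counts (median 39878595), and the members together 13126 to 27447 of them (median 19664). All 7 luminal markers ESR1, PGR, GATA3, FOXA1, KRT8, KRT18 and KRT19 were present in every library, at 71.4 to 5032 CPM (counts scaled to a common library size, with TMM factors over the 24 libraries). Among the markers of other cells, PTPRC, COL1A2, PECAM1, KRT5 and KRT14 did not exceed 0.357 CPM, whereas the collagen gene COL1A1 was present at 47.3 to 81.0 CPM. In Y537S the summed level of the 46 members was lower in clone 1 than in clone 2 under all 5 conditions, at 347.0 to 472.1 against 452.4 to 590.4 CPM.

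All 5 histone classes were represented, with 5 of 6 H1, 11 of 17 H2A, 13 of 18 H2B, 8 of 14 H3 and 9 of 15 H4 genes kept. Of the 24 genes below the rule, 9 had 0 counts in every library, and these included the near-identical pairs HIST2H2AA3 and HIST2H2AA4, HIST2H3A and HIST2H3C, and HIST2H4A and HIST2H4B, whose reads can map equally well to either copy. Just inside the rule were HIST1H4I and HIST3H3, with 10 counts in 4 libraries, and just outside it HIST1H2BB and HIST1H2BM, with 10 counts in 3 libraries. With a requirement of 10 counts in all 24 libraries, 27 genes would remain. The filter on low counts before each test removed further members, so that 31 were tested in all 14 comparisons and HIST3H3 in none.

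A few genes made up most of the signal. The 5 highest members, HIST1H2BK, HIST1H1C, HIST2H2BE, HIST1H2BD and HIST1H2AC, held 75.5% to 81.4% of the summed member level in every library (median 78.4%). HIST1H2BK, which encodes an H2B protein, alone held 29.7% to 43.95%. Its mean over the 24 libraries was 183.3 CPM, followed by 108.5 CPM for HIST1H1C, which encodes the linker histone H1.2. Per kilobase of exon, HIST1H2BK reached 370.3 CPM and HIST1H1C 148.4, against 43.9 for HIST1H2BD, 20.6 for HIST2H2BE and 12.5 for HIST1H2AC. By this measure the order of the third and the fourth gene was exchanged. The exon lengths are those of GENCODE 44, whereas the counts were made on UCSC Known Genes, whose exons may differ.

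The 2 leading genes therefore belonged to the 30 members with only a stem-loop end in the annotation, and these 30 held 60.2% to 68.9% of the summed level. Apart from HIST1H2BK and HIST1H1C, most genes of this group were low, and its median of mean levels was 0.755 CPM, against 4.63 CPM for the 14 members that also had another end. Those 14 supplied 6 of the 10 highest members and 27.9% to 35.9% of the summed level. The remaining 2.71% to 4.12% came from HIST1H2BG and HIST1H2BF. The ends are those of GENCODE transcripts, and the exons on which reads were counted may differ from them. Whether the reads of HIST1H2BK and HIST1H1C came from polyadenylated forms was not tested.

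**Figure D1:**
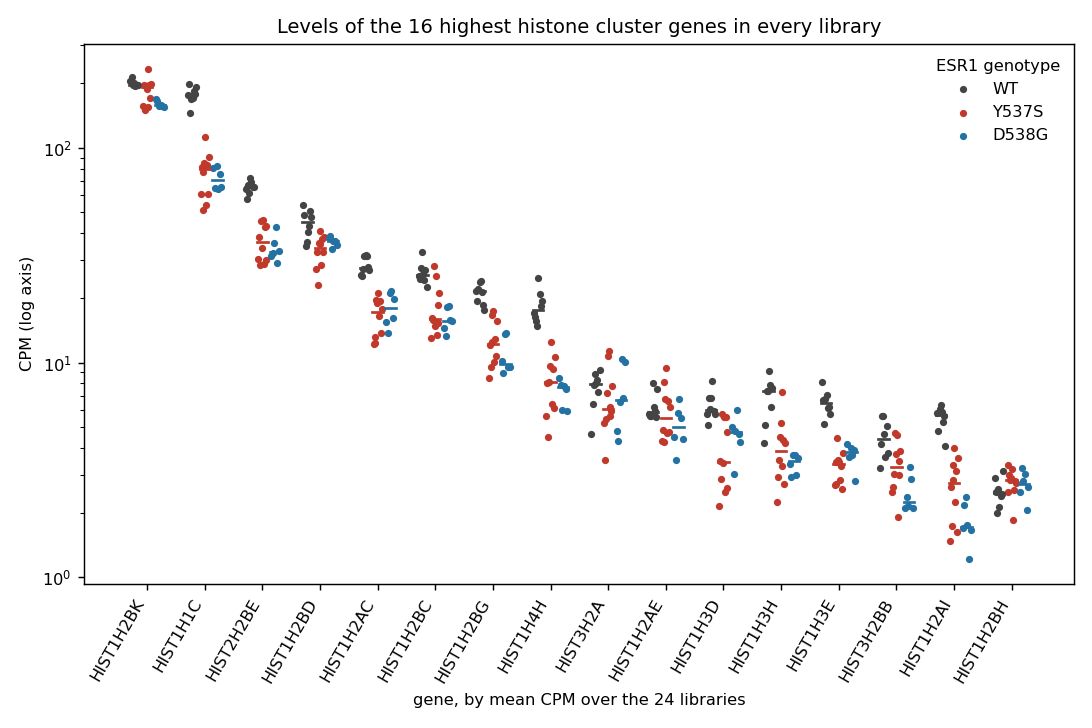
CPM on a log axis of the 16 members with the highest mean, with 1 point for each of the 24 libraries, coloured by ESR1 genotype, and a bar at the median of each genotype. HIST1H2BK lies between 149.9 and 234.2 CPM in all genotypes, while the WT points of HIST1H1C, HIST2H2BE, HIST1H2AC, HIST1H2BG and HIST1H4H all lie above the mutant points.

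To determine how the levels depended on the ESR1 genotype, mutant and WT clones were compared in the mimic negative control. Most of the abundant members were lower in both mutants. In Y537S, 10 of 38 tested members were lower and 2 were higher than in WT (edgeR, adjusted p under 0.05), where 12.7% of all genes tested were lower and 16.3% higher. In D538G, 11 of 37 were lower and 1 was higher, against 18.5% and 20.4% of all genes. The median log2 fold change of the tested members was -0.23 in Y537S and -0.42 in D538G, beside -0.0026 and -0.00078 over all genes tested. The comparisons share the WT libraries. In bulk RNA, fewer cells that carry a transcript and less of it in each cell cannot be told apart.

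HIST1H1C was the most abundant gene called lower in both mutants. Its level was 175.7 and 197.7 CPM in the WT clones, 60.7 and 81.7 CPM in the Y537S clones and 80.6 and 65.2 CPM in the D538G clones. Both mutants lay far below WT and overlapped each other. The log2 fold change was -1.36 ± 0.14 (SE) in Y537S (adjusted p = 0.00074, edgeR) and -1.35 ± 0.11 in D538G (adjusted p = 3.0e-05, edgeR). Across all treatments, the 8 WT libraries ranged from 144.7 to 197.7 CPM and the 16 mutant libraries from 51.1 to 112.7 CPM.

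HIST1H2BK followed this only in part. It stood at 204.1 and 213.5 CPM in WT, 156.0 and 196.3 CPM in Y537S and 169.1 and 165.3 CPM in D538G. The small difference passed in D538G (log2 fold change -0.32 ± 0.07, adjusted p = 0.0053, edgeR) but not in Y537S (-0.22 ± 0.11, adjusted p = 0.20), whose clones differed more between themselves. Over all treatments the highest Y537S library, at 234.2 CPM, exceeded every WT library.

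HIST2H2BE, which encodes an H2B protein and has a polyadenylated mRNA, was at 64.3 and 57.6 CPM in WT. It was at 30.4 and 38.4 CPM in Y537S and at 31.4 and 32.2 CPM in D538G. The mutant levels did not overlap with WT, with log2 fold changes of -0.79 ± 0.14 (adjusted p = 0.0052) and -0.94 ± 0.09 (adjusted p = 8.0e-05, edgeR). HIST1H2AC, an H2A gene, fell from 25.6 and 25.3 CPM in WT to 12.3 and 13.2 CPM in Y537S and 15.5 and 13.7 CPM in D538G. Here the clones of each genotype were close to each other and the log2 fold changes were -0.97 ± 0.13 (adjusted p = 0.0018) and -0.80 ± 0.12 (adjusted p = 0.00083, edgeR).

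The other genes that were lower in both mutants came from all core classes. Among H2B genes, HIST1H2BD fell by 0.76 and 0.42 on the log2 scale in Y537S and D538G, HIST1H2BC by 0.74 and 0.83 and HIST1H2BG by 0.97 and 1.09. The H4 gene HIST1H4H fell by 1.26 and 1.02 and the H3 gene HIST1H3E by 1.25 and 0.92. HIST1H2AI, an H2A gene that shares near-identical sequence with other HIST1H2A copies and whose counts are uncertain for that reason, fell by 1.34 and 1.45. HIST1H1T, the testis linker histone, fell by 2.14 and 1.74, from a mean of only 1.01 ± 0.36 CPM (SD, n = 2) in WT. Of the named abundant genes that did not pass, HIST1H3D had log2 fold changes of -0.92 and -0.43, HIST1H3H of -0.82 and -0.56 and HIST3H2A of -0.30 and -0.27.

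The genes that were higher in mutants were all scarce. HIST1H1B, the linker histone H1.5, was at 0.27 and 0.090 CPM in WT, 1.36 and 1.91 CPM in Y537S and 0.93 and 0.54 CPM in D538G. The WT clones were lowest without overlap. Its log2 fold change was 3.16 ± 0.61 in Y537S (adjusted p = 0.0085) and 1.98 ± 0.67 in D538G (adjusted p = 0.043, edgeR). The H4 gene HIST1H4A was higher in Y537S, at 1.36 and 1.25 CPM against 0.055 and 0.39 CPM in WT (log2 fold change 2.59 ± 0.75, adjusted p = 0.038, edgeR).

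Described by their annotated ends, 6 of the 13 tested members that also had another end were lower in each mutant and none was higher. Of the members with a stem-loop end only, 3 of 23 were lower and 2 higher in Y537S, and 4 of 22 were lower and 1 higher in D538G. The medians of the log2 fold changes were -0.76 against 0.15 in Y537S and -0.72 against -0.12 in D538G. The groups also differed in level, so that the tests had unequal power, and the difference between them was not tested. Without the WT control clone D1, 5 members were lower and 1 higher in Y537S. The D538G counts were 10 lower and 0 higher with DESeq2.

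**Figure D2:**
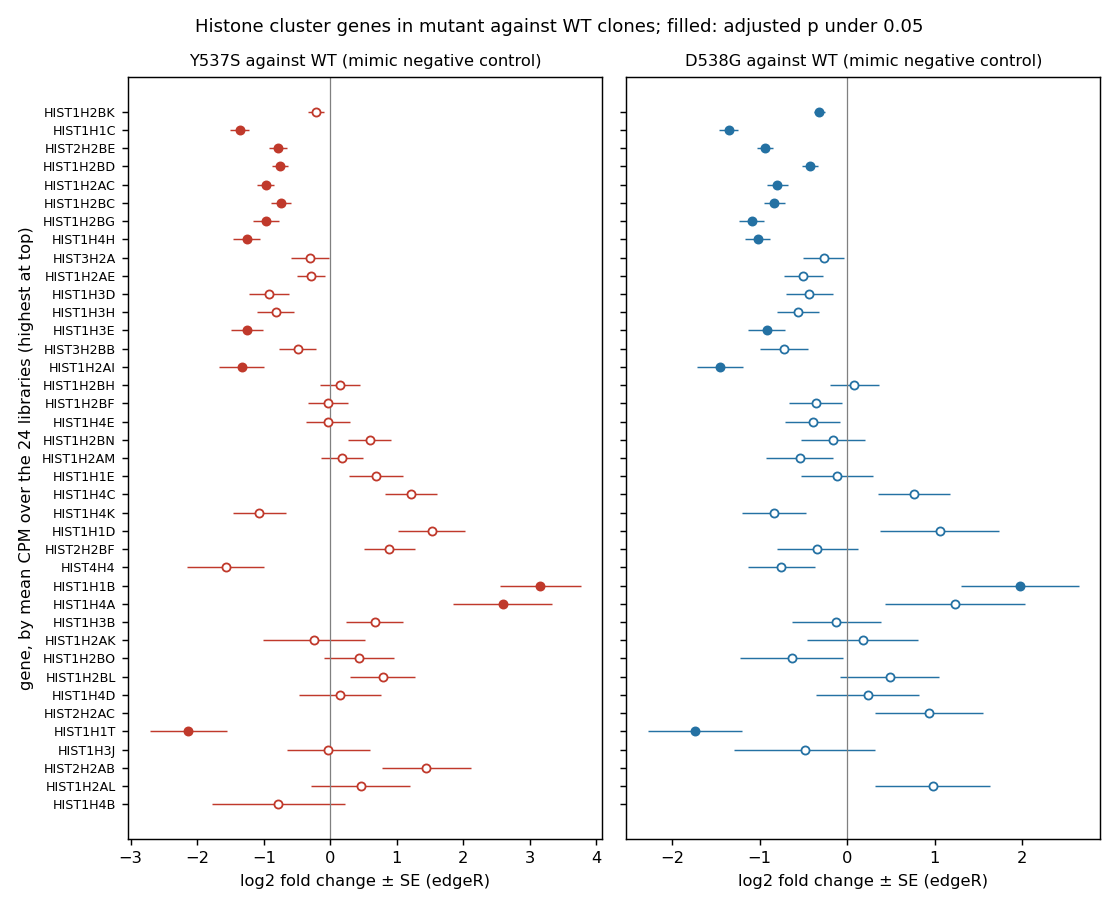
Log2 fold change with its SE for each tested member in Y537S (left) and D538G (right) against WT in the mimic negative control, ordered by mean level, with filled points for adjusted p under 0.05 (edgeR). The filled points of the abundant genes lie left of 0 in both panels, and the few filled points right of 0 are scarce genes, HIST1H1B in both and HIST1H4A in Y537S.

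The separation held over treatments for some genes. For 7 of the 46 members, HIST1H1C, HIST2H2BE, HIST1H2AC, HIST1H2BG, HIST1H4H, HIST1H3E and HIST1H2AI, all 8 WT libraries were above all 16 mutant libraries, as was the case for 4.60% of all genes that met the same count rule. No member had all WT libraries below all mutant libraries, as did 6.86% of all genes. The libraries of the mimic negative control are among these and the treatments differ between genotypes.

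The genes that normally accompany histone synthesis went the other way from most of the abundant members. For members with a stem-loop end only, the median log2 fold change was 0.15 in Y537S and -0.12 in D538G. All 20 genes of the S phase list, which holds replication and cell cycle genes such as MCM2 and RRM2, were higher in both mutants, with a median log2 fold change of 1.20 in Y537S and 1.00 in D538G. Over all genes tested, 16.3% were higher and 12.7% lower in Y537S, and 20.4% and 18.5% in D538G. RRM2, a subunit of ribonucleotide reductase, was higher by 1.80 and 1.44. The MCM2 subunit of the replicative helicase was at 73.0 and 82.5 CPM in WT, 195.8 and 198.3 CPM in Y537S and 168.2 and 166.8 CPM in D538G. Of the 17 genes for histone mRNA transcription, processing and decay, 12 were higher in Y537S, 10 were higher in D538G and none was lower. SLBP, which binds the stem-loop, was at 53.8 and 56.3 CPM in WT, 85.3 and 80.6 CPM in Y537S and 78.6 and 86.4 CPM in D538G (log2 fold changes 0.62 and 0.59, adjusted p = 0.0026 and 0.00065, edgeR). NPAT had log2 fold changes of 0.48 and 0.28 (adjusted p = 0.0091 and 0.025, edgeR).

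Of 10 histone chaperones, 6 were higher in each mutant, among them CHAF1B of the CAF-1 complex (1.63 and 1.40) and ASF1B (1.40 and 1.37). Over all genes tested, 16.3% were higher in Y537S and 20.4% in D538G. Of the 10 tested replacement histones, 7 were higher in each mutant, with the centromeric CENPA at 2.13 and 1.67 and H2AFZ, which encodes H2A.Z, at 1.16 in Y537S. H2AFY2, a macroH2A gene, was the only one lower, in D538G, where 18.5% of all genes were lower. These lists were chosen with results of these data known, and their direction is not independent evidence.

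**Figure D3:**
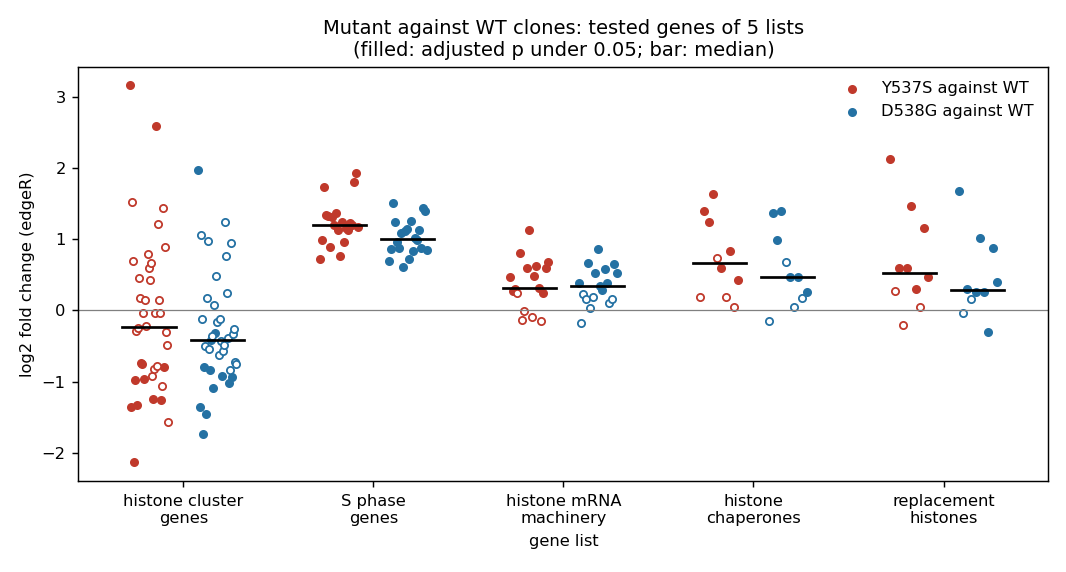
Log2 fold changes of all tested genes of 5 lists in Y537S (red) and D538G (blue) against WT in the mimic negative control, with filled points for adjusted p under 0.05 (edgeR) and a bar at each median. The medians of the histone cluster genes, -0.23 and -0.42, lie below 0, whereas those of the S phase genes, 1.20 and 1.00, and of the other 3 lists lie above it.

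The mimics were then compared with the negative control in clones of the same genotype. The clone is the same cell line in both arms, so the fit with the clone as a block is given beside the unpaired one wherever the number of calls differed by more than 1.5 times. With 2 clones the blocked fit leaves little spread to estimate within a gene. Its p-values therefore rest largely on variance estimates shared across genes. The mimic comparisons of 1 genotype share their control libraries. With 2 libraries per group an exact permutation test of a single gene cannot give a two-sided p below 0.333.

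The most calls among the members followed the miR-331-3p mimic. In Y537S, 4 of 42 tested members were higher and none was lower, where 17.2% of all genes were higher and 15.8% lower. The 4 genes were HIST1H2AC, HIST1H3H, HIST3H2A and HIST2H2AC, and the share that passed was below that of all genes. With the clone as a block, 15 of 42 passed, all higher, against 60.7% of all genes. In the unpaired fit 36 of 42 had a log2 fold change above 0, with a median of 0.45 beside -0.010 over all genes. With the GC correction 28 of 42 were above 0, with a median of 0.30 beside 0.050 over all genes. Leaving out the control clone 1 left 1 call and leaving out the mimic clone 2 left 2.

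HIST3H2A, an H2A gene of the small cluster on chromosome 1, rose from 5.23 and 3.52 CPM in the Y537S controls to 10.7 and 11.3 CPM, without overlap (log2 fold change 1.36 ± 0.25, adjusted p = 0.014, edgeR). HIST1H3H, an H3 gene, rose from 2.24 and 2.93 CPM to 5.25 and 7.28 CPM (1.31 ± 0.30, adjusted p = 0.025, edgeR). HIST1H2AC rose from 12.3 and 13.2 CPM to 18.8 and 21.2 CPM (0.68 ± 0.15, adjusted p = 0.021, edgeR). In these genes each clone was higher after the mimic than either control clone. HIST2H2AC, another H2A gene, was at 0.33 and 0.17 CPM in the controls and 1.41 and 0.77 CPM after the mimic, with a log2 fold change of 2.14 (adjusted p = 0.049, edgeR) that rests on few reads. HIST1H2BK had a log2 fold change of 0.29 ± 0.17 (adjusted p = 0.23), with each clone higher than its own control, at 188.2 and 234.2 against 156.0 and 196.3 CPM (blocked adjusted p = 9.7e-05, edgeR). HIST1H1C, at 85.3 and 112.7 against 60.7 and 81.7 CPM, gave 0.50 ± 0.20 (adjusted p = 0.11; blocked adjusted p = 1.4e-06, edgeR).

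In WT, 5 of 34 members were higher and 1 was lower after miR-331-3p, against 14.2% and 10.6% of all genes. HIST1H3H was at 9.13 and 7.86 CPM against 4.22 and 5.12 CPM in the controls (log2 fold change 0.89 ± 0.18, adjusted p = 0.0057, edgeR). HIST3H2A, at 8.002 and 8.30 against 4.63 and 6.38 CPM, gave 0.59 ± 0.19 (adjusted p = 0.044), HIST1H4H 0.47, HIST1H2AC 0.33 and HIST2H2BE 0.24. These 5 genes all have an annotated transcript that does not end at the stem-loop, as had 13 of the 34 tested members. HIST1H2BD, which has such a transcript too, was lower, by 0.28 on the log2 scale (adjusted p = 0.029, edgeR). Members with such a transcript had the higher median level, 4.63 against 0.755 CPM with a stem-loop end only, so that the tests had unequal power. No call was left without the mimic clone D1, 2 without the mimic clone D4 and 3 without the control clone D1.

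The difference in response between the genotypes was tested directly. HIST1H2BD was the only member of 44 to pass, where 3.47% of all genes were higher and 6.47% lower in this test. It was at 40.6 and 43.1 CPM after miR-331-3p against 54.4 and 48.8 CPM in WT, and at 35.6 and 40.9 against 27.2 and 32.6 CPM in Y537S. The response was thus downward in both WT clones and upward in both Y537S clones (Y537S minus WT 0.64 ± 0.17, adjusted p = 0.048, edgeR). It did not pass with the GC correction or without any 1 of 6 of the 8 libraries, namely Y537S control clone 1, Y537S mimic clone 2 and all 4 WT libraries. With the clone as a block, 6 of 44 passed, all with the larger value in Y537S, against 34.1% of all genes. These were HIST1H2BD (0.64), HIST3H2A (0.76), HIST1H2AE (0.71), HIST1H1C (0.54), HIST1H2BC (0.41) and HIST1H2BK (0.34).

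**Figure D4:**
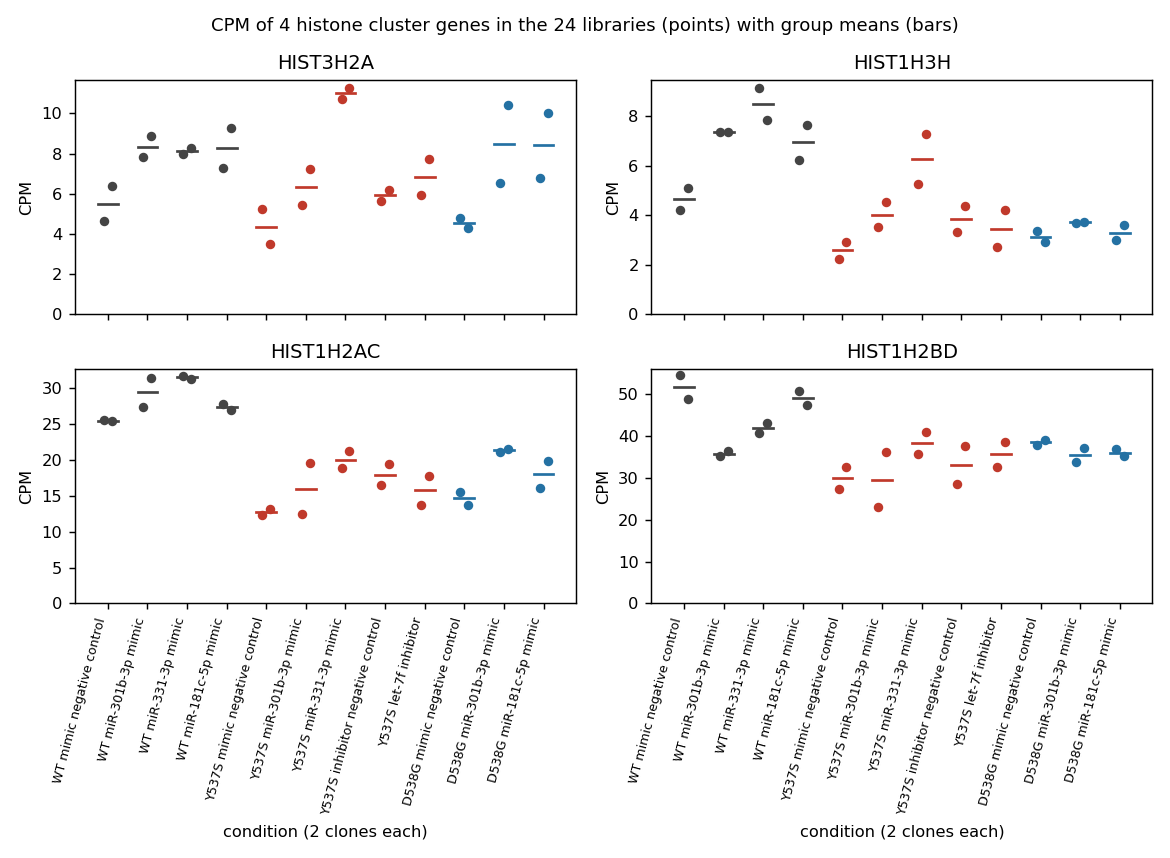
CPM of HIST3H2A, HIST1H3H, HIST1H2AC and HIST1H2BD in the 24 libraries (points) with the mean of each condition (bars), coloured by genotype. HIST3H2A lies above its control in every mimic condition by the means, and the HIST1H2BD points of both WT clones lie below the WT controls after miR-301b-3p and miR-331-3p.

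The miR-301b-3p mimic was used in all 3 genotypes. In WT, HIST1H2BD was the only 1 of 37 members to pass, against 4.63% of all genes higher and 3.87% lower. It was at 35.1 and 36.3 CPM against 54.4 and 48.8 CPM in the controls (log2 fold change -0.54 ± 0.10, adjusted p = 0.015, edgeR), and no longer passed without the control clone D1. The mutants gave -0.04 ± 0.23 in Y537S (22.9 and 36.0 against 27.2 and 32.6 CPM) and -0.11 ± 0.10 in D538G (33.8 and 36.98 against 37.9 and 39.0 CPM), neither of which passed. The difference in response did not pass either (Y537S minus WT 0.51 ± 0.26, D538G minus WT 0.43 ± 0.14, adjusted p = 1.0 for both, edgeR). The 2 other members with a match to miR-301b-3p, HIST1H2BN and HIST1H3E, did not pass in WT. With the clone as a block 5 of 37 passed in WT, 3 higher (HIST3H2A, HIST3H2BB and HIST1H3H) and 2 lower (HIST1H2BD and HIST1H1C), against 28.2% of all genes.

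In D538G, 2 of 37 members, HIST1H2AC and HIST3H2A, were higher and none was lower after miR-301b-3p, against 5.29% and 6.49% of all genes. HIST1H2AC was at 21.1 and 21.5 CPM against 15.5 and 13.7 CPM (log2 fold change 0.55 ± 0.13, adjusted p = 0.026, edgeR), and HIST3H2A at 6.54 and 10.4 against 4.82 and 4.29 CPM (0.90 ± 0.25, adjusted p = 0.044, edgeR). Neither passed without either library of clone C2. The block gave 7 of 37, all higher, against 33.3% of all genes, and added HIST2H2BE, HIST1H2BC, HIST1H2BG, HIST1H2AE and HIST1H2BN. In Y537S none of 41 members passed, against 1.23% of all genes higher and 2.34% lower, and none had an unadjusted p under 0.05. DESeq2, whose own filter left 11 members there, called none of those. The block gave 5 of 41, against 38.4% of all genes. HIST3H2A, HIST1H2BC, HIST1H3D and HIST1H3H were then higher and HIST1H1C was lower.

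NPAT fell after miR-301b-3p in all 3 genotypes. It was at 31.5 and 24.8 CPM against 47.7 and 44.95 CPM in WT, 42.0 and 41.5 against 61.9 and 64.7 CPM in Y537S and 37.4 and 35.8 against 55.1 and 57.3 CPM in D538G. The log2 fold changes were -0.72 ± 0.13, -0.62 ± 0.09 and -0.61 ± 0.09 (adjusted p = 0.014, 0.030 and 0.0064, edgeR). It was lower after miR-331-3p as well, by 0.60 in Y537S and 0.28 in WT. After miR-181c-5p, to which it also had a match, NPAT was at 44.1 and 40.3 CPM against 47.7 and 44.95 CPM in WT. In D538G it was at 58.0 and 48.6 against 55.1 and 57.3 CPM, higher in clone A5 and lower in clone C2. CASP8AP2, a factor of the histone locus body, fell after miR-331-3p by 1.21 in Y537S and by 0.51 in WT. The histone cluster genes had median log2 fold changes of 0.15, 0.12 and 0.24 after miR-301b-3p in WT, Y537S and D538G.

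After miR-181c-5p, only HIST3H2A of 39 members passed in D538G, against 5.58% of all genes higher and 3.95% lower. It was at 6.81 and 10.0 CPM against 4.82 and 4.29 CPM (log2 fold change 0.89 ± 0.23, adjusted p = 0.039, edgeR), and did not pass with the GC correction or without either library of clone C2. With the clone as a block 4 of 39 passed, all higher, against 29.3% of all genes, and the others were HIST1H2AC (0.30), HIST1H1E (0.83) and HIST2H2AB (2.47). In WT none of 34 passed, against 8.10% of all genes higher and 8.28% lower, with 2 at an unadjusted p under 0.05 and 0 calls by DESeq2 among the 14 members that its filter left. HIST3H2A (0.59) and HIST1H3H (0.56) passed with the block, 2 of 34 against 27.9% of all genes. Neither was called higher when the GC correction was added to the block. The difference in response was called for none of 39 members (0.00646% of all genes).

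The let-7f inhibitor in Y537S gave no call among 41 members, as it gave 0% over all genes with edgeR. One member was at an unadjusted p under 0.05 and DESeq2 called 0 of the 33 members that its filter left. HIST1H3B passed with the block, 1 of 41 against 11.2% of all genes, at 0.58 and 1.42 CPM against 0.20 and 0.29 CPM. For miR-301b-3p the difference in response was called for none of 43 members in Y537S (0.00632% of all genes) and none of 41 in D538G (0.00640%). At an unadjusted p under 0.05 the counts were 0 and 4, and DESeq2 called 0 in each of these and in the miR-181c-5p difference, where 1 member was at an unadjusted p under 0.05.

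HIST3H2A was called higher in 4 of the 7 mimic comparisons without the block and in 7 with it. Its log2 fold changes were 0.59, 0.52 and 0.90 after miR-301b-3p in WT, Y537S and D538G, 0.59 and 1.36 after miR-331-3p in WT and Y537S, and 0.58 and 0.89 after miR-181c-5p in WT and D538G. With the GC correction added to the block, no member was called higher after miR-181c-5p in WT. The blocked mimic fits called 27.9% (miR-181c-5p in WT) to 60.7% (miR-331-3p in Y537S) of all genes. The share of all genes called higher in all 7 mimic comparisons was not computed. HIST1H2AC was called higher in 3 of these comparisons (4 with the block) and HIST1H3H in 2 (5 with the block). HIST1H2AE, HIST1H3D and HIST3H2BB were called in none without the block and in 2, 3 and 2 with it. The polyadenylated linker histone gene H1FX passed in all 7, with log2 fold changes of 0.52 to 1.49. The comparisons of a genotype share 2 control libraries, so the 7 values are not independent.

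**Figure D5:**
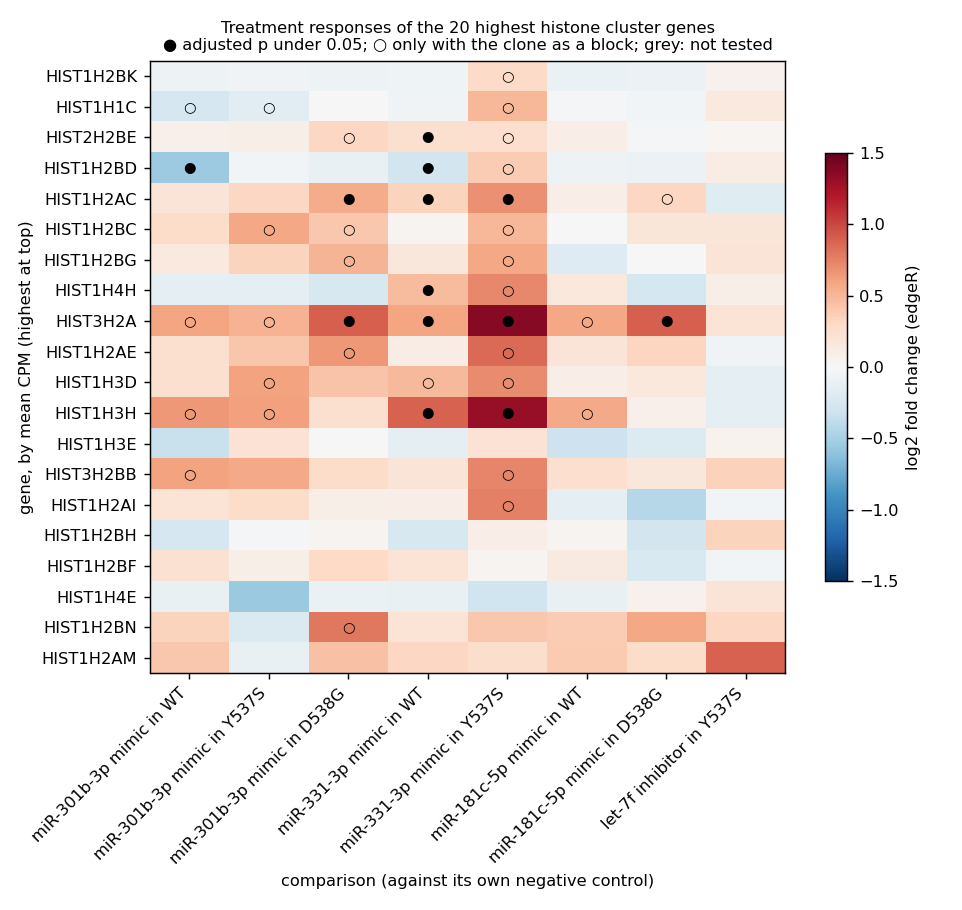
Heatmap of the log2 fold changes (edgeR) of the 20 highest members in the 7 mimic comparisons and the let-7f inhibitor comparison, with filled circles for adjusted p under 0.05 and open circles for genes that passed only with the clone as a block. The row of HIST3H2A is red in every mimic column, and the column of miR-331-3p in Y537S holds the most marks.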

How the data were processed

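RNA was extracted from the 24 cultures and made into stranded poly-A mRNA libraries (KAPA) that were sequenced on an Illumina NovaSeq. The authors deposited unnormalized read counts for each gene, made with HISAT2 alignment to hg19, SAMtools and featureCounts on UCSC Known Genes; versions and the settings for strand and multi-mapping reads are not given in the sources used here. The 3 tables, 1 per genotype, were joined by gene symbol (26364 genes), and 0 columns were left unused. Column names give the clones as 1 and 2 (Y537S), A5 and C2 (D538G) and D1 and D4 (WT). Per-gene counts of near-identical histone copies depend on how reads that map to several places were handled.

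Each comparison was fitted on its own libraries with edgeR 4.0.16 (quasi-likelihood test, TMM, default filterByExpr, two-sided, Benjamini-Hochberg adjustment over all genes tested, threshold 0.05) in R 4.3.3. The SE is the log2 fold change divided by the square root of the F statistic. Differences in response were interaction terms. DESeq2 1.42.0, which the study used, RLE scaling, no filter, a GC correction (lowess span 0.3), leaving out each library and the clone as a block were alternatives. Libraries of the same clone come from the same cell line; across 16383 genes their deviations from the group means correlated at 0.12 to 0.47. On simulated data for miR-301b-3p in Y537S (15099 genes), 96.5% of 200 genes changed by 1 on the log2 scale were recovered. The simulated counts had a single fixed dispersion and no difference between clones, and only genes above 1 CPM were changed. The recovery therefore does not give the power for scarce members or for clones that differ.

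Symbols were matched to GENCODE 44 on hg19 through RefSeq synonyms (22494 by symbol, 1361 by an older symbol, 2509 unmatched). The named genes were HIST1H2BK, HIST1H2AC and HIST2H2BE, the 2 highest members of each class, up to 3 called members per direction and comparison, up to 2 called genes of each other list with the smallest p, the members next to the count rule, and any group of 5 or fewer. Members, lists and tests were chosen with earlier results of these data known, and the grouping by annotated ends and the non-overlap count were added after the values were seen. The p-values of the unpaired fits measure the spread between 2 clones. Those of the blocked fits measure the spread left after the clone differences are taken out. With 2 clones little of that spread can be estimated within a gene, and these p-values rest largely on variance estimates shared across genes.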

Additional observations from a re-analysis of the deposited data

Results flagged for a closer look

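HIST1H2BD was marked because its response to miR-331-3p differed between Y537S and WT in the test of the difference (0.64 on the log2 scale, adjusted p = 0.048, edgeR), with the level falling in both WT clones and rising in both Y537S clones. That call was lost with the GC correction and depended on single libraries, as described with the results. Over all genes, 3.47% were higher and 6.47% lower in this test. The same test also marked 6 genes of the companion lists. The difference, Y537S minus WT, was 0.53 for MCM2, 0.49 for MCM6, 0.50 for CPSF3, which encodes the histone mRNA endonuclease, 0.62 for H1FX, 0.61 for H2AFJ and -0.71 for CASP8AP2. Groups of 2 libraries are too small for a search for single outlying libraries.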

How the results depend on the processing

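No called member changed direction under any alternative. Of the 39 calls, 39 passed with RLE scaling, 39 without the filter, 35 with DESeq2 and 33 with the GC correction. Counts of called members differed from the reported ones by more than 1.5 times as follows. With the clone as a replicate block (paired analysis) they were 5, 15 and 1 for miR-301b-3p, miR-331-3p and the let-7f inhibitor in Y537S, 7 and 4 for miR-301b-3p and miR-181c-5p in D538G, 5 and 2 for the same mimics in WT, and 6 for the miR-331-3p difference. In the same order the replicate block with GC correction gave 5, 12, 2, 7, 3, 7, 2 and 4. For miR-181c-5p in WT its 2 calls were lower, whereas the 2 calls of the block alone were higher. Of its other calls, 2 were lower for miR-301b-3p in Y537S and 3 for miR-301b-3p in WT. In D538G, 1 was lower for each of miR-301b-3p and miR-181c-5p. The paired fit changed no other call by this measure, and it called all members that the unpaired fit called. DESeq2 gave 7 for miR-331-3p in Y537S and 2 for the miR-331-3p difference. No filter gave 4 for miR-301b-3p in D538G, 4 in WT and 1 for miR-181c-5p in WT. The GC correction gave 1 and 0 for miR-301b-3p and miR-181c-5p in D538G, 3 and 1 in WT, and 0 for the miR-331-3p difference. The 3 and 1 calls in WT were all lower. Leaving out 1 library gave 1 to 6 calls for miR-331-3p in Y537S, 0 to 3 for miR-301b-3p and 0 to 1 for miR-181c-5p in D538G, 0 to 2, 0 to 5 and 0 to 1 for miR-301b-3p, miR-331-3p and miR-181c-5p in WT, 6 to 15 for Y537S against WT and 0 to 1 for the miR-331-3p difference. The libraries concerned, besides those named with the results, were the mimic clones D1 and D4 (2 calls each) for miR-301b-3p and mimic clone D1 (1 call) for miR-181c-5p in WT. A library left alone in its group is assumed to vary like the others. The causes were not tested. Genotypes cannot be paired because their clones differ. The 5 highest genes per length kept their order with the longest transcript in place of all exons. Most members are scarce, and depth limits what their tests can show.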
